A study of Mus musculus with 72 samples.

Results

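Snap91 and 9 of its partners in clathrin-mediated endocytosis were followed across the tissues of Gnb5 knockout mice. The 10 genes, of 53715 gene identifiers counted in every library, were Snap91, its paralogue Picalm, the clathrin chains Cltc, Clta and Cltb, the dynamins Dnm1, Dnm2 and Dnm3, and the amphiphysins Amph and Bin1. Snap91 was selected because its level was much lower in knockout than in wild-type atria and ventricles, so those differences are given as a description without a test, and its partners were selected by name. RNA-seq libraries came from 18 male mice of 18 weeks on a C57BL/6J background, 6 Gnb5-/-, 6 Gnb5+/- and 6 Gnb5+/+, the mutant alleles lacking exon 3 of Gnb5. Whole atria and whole ventricles were taken from all 3 genotypes, and the cerebellum, the hippocampi and the cerebral cortex from Gnb5-/- and Gnb5+/+ mice, which gave 72 libraries in 12 groups of 6. The deletion was made in the germline, so effects that arise within a tissue and effects of other organs on it cannot be told apart. Each mouse gave every tissue of its genotype, so the tissues are not independent animals. In whole-tissue RNA, fewer cells of a type and less RNA per cell cannot be told apart.

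Clathrin-coated vesicles bring membrane and its proteins into the cell. Adaptors such as AP180, the product of Snap91, and CALM, the product of Picalm, bind membrane lipids, clathrin and the AP2 complex at the forming pit and retrieve VAMP proteins, the vesicle SNAREs. Clathrin heavy and light chains assemble into the cage around the pit, the amphiphysins sense and bend the neck of the bud, and the GTPase dynamin cuts it. In neurons the same machinery recovers synaptic vesicles after release, and AP180, dynamin 1 and amphiphysin are its brain-enriched forms, whereas CALM and dynamin 2 are found in most cells.

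Snap91 (ENSMUSG00000033419) lies on the minus strand of chromosome 9 at positions 86765923 to 86880654 of GRCm38, 11.4 Mb from Gnb5 on the same chromosome. Picalm (ENSMUSG00000039361) lies on the plus strand of chromosome 7 at positions 90130213 to 90213465. The 250 bases before the RefSeq start site of each gene (GRCm38.p6, 5′ to 3′ on the gene's strand) are shown because Snap91 was the member that differed in knockout heart and Picalm is the paralogue beside which it is read. Capitals mark matches, on either strand, to the GC box GGGCGG, which reads as CCGCCC on the other strand, and to the core of the cyclic AMP response element, TGACG, which reads as CGTCA. No 2 matches overlap.
Snap91, chr9:86880709-86880958, minus strand: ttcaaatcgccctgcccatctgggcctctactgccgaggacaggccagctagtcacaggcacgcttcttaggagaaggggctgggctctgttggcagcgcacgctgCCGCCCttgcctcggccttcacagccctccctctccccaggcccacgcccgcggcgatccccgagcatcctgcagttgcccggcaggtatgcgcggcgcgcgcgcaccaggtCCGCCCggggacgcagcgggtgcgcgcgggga
Picalm, chr7:90129963-90130212, plus strand: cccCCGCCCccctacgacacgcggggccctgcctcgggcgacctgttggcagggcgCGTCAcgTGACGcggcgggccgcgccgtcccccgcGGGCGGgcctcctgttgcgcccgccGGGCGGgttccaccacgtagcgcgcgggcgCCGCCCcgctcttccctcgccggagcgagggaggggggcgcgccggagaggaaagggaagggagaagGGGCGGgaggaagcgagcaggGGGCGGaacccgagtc

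Both windows were rich in CpG, with 26 CpG dinucleotides before Snap91 and 39 before Picalm. The Snap91 window had 71.2% G or C and held 2 GC boxes, and the Picalm window had 79.2% and held 6. The Picalm window also held 2 cyclic AMP response element cores and the Snap91 window had 0 matches to those letters, while neither had the CCAAT box, searched as CCAAT and as its reverse complement ATTGG. Of 32851 RefSeq windows of the same length, 32.7% held a GC box, 17.8% a cyclic AMP response element core and 33.8% a CCAAT box. These matches are descriptions of the letters and say nothing of binding.

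The 72 libraries held between 29204390 and 48807435 counts on genes (median 38864900). Gnb5 itself was lower in every Gnb5-/- library than in every Gnb5+/+ library of the same tissue. Its normalised count was 1.84 ± 0.403 CPM (counts scaled to the effective library size by TMM within a tissue) in Gnb5-/- atria against 29.7 ± 2.48 in Gnb5+/+ atria (mean ± SD, n = 6), and its log2 difference lay between -2.84 in cerebellum and -4.26 in ventricles. Marker lists were read against the labels: the summed atrial markers were at least 19588 CPM in atria and at most 290.1 in ventricles, and the summed cerebellar markers at least 2544 in cerebellum and at most 54.4 in the other tissues. The hippocampal list separated hippocampus (at least 554) from cerebellum and cortex (at most 379.8) but not from heart, where it reached 641 in Gnb5+/+ atria. In 4 libraries the gene values stood further from their group than in the rest. The median absolute log2 deviation of a gene from its group was 8.09 times the median of the other libraries in Gnb5-/- cerebellum replicate 2, 7.67 times in Gnb5-/- cortex replicate 3, 3.64 times in Gnb5+/- ventricles replicate 4 and 3.16 times in Gnb5-/- cortex replicate 5. Brain differences that moved without these libraries are given both ways where they are described.

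In the heart, Snap91 was lower in Gnb5-/- than in Gnb5+/+ mice without overlap between the libraries, and Gnb5+/- mice lay between them. In Gnb5+/+ atria it ran from 19.0 to 32.0 CPM with a median of 26.0 (25.6 ± 4.27, mean ± SD, n = 6). In Gnb5+/- atria it ran from 15.8 to 17.1 with a median of 16.3 (16.3 ± 0.464). In Gnb5-/- atria it ran from 3.90 to 7.29 with a median of 5.46 (5.49 ± 1.11). All 6 Gnb5+/- libraries were thus below the lowest wild-type and above the highest knockout library. The fitted difference was -2.22 on the log2 scale in Gnb5-/- atria, a 4.66-fold lower level, and -0.65 in Gnb5+/- atria, 1.57-fold lower.

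The ventricles began from a lower level and showed the same order. Snap91 ran from 4.12 to 11.3 CPM with a median of 6.42 in Gnb5+/+ ventricles (6.97 ± 2.40, n = 6). It ran from 3.08 to 4.93 with a median of 4.32 in Gnb5+/- ventricles (4.14 ± 0.690). It ran from 0.533 to 1.32 with a median of 0.793 in Gnb5-/- ventricles (0.853 ± 0.313), from 20 to 50 counts per library. Knockout libraries did not overlap those of the other genotypes, while the Gnb5+/- libraries reached into the lower end of the wild-type range. The log2 difference was -3.03 in Gnb5-/- ventricles, 8.19-fold lower, and -0.75 in Gnb5+/- ventricles, 1.68-fold lower. Both mutant genotypes are set against the same 6 wild-type libraries of each tissue, so the 2 comparisons are not independent.

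**Figure D1:**
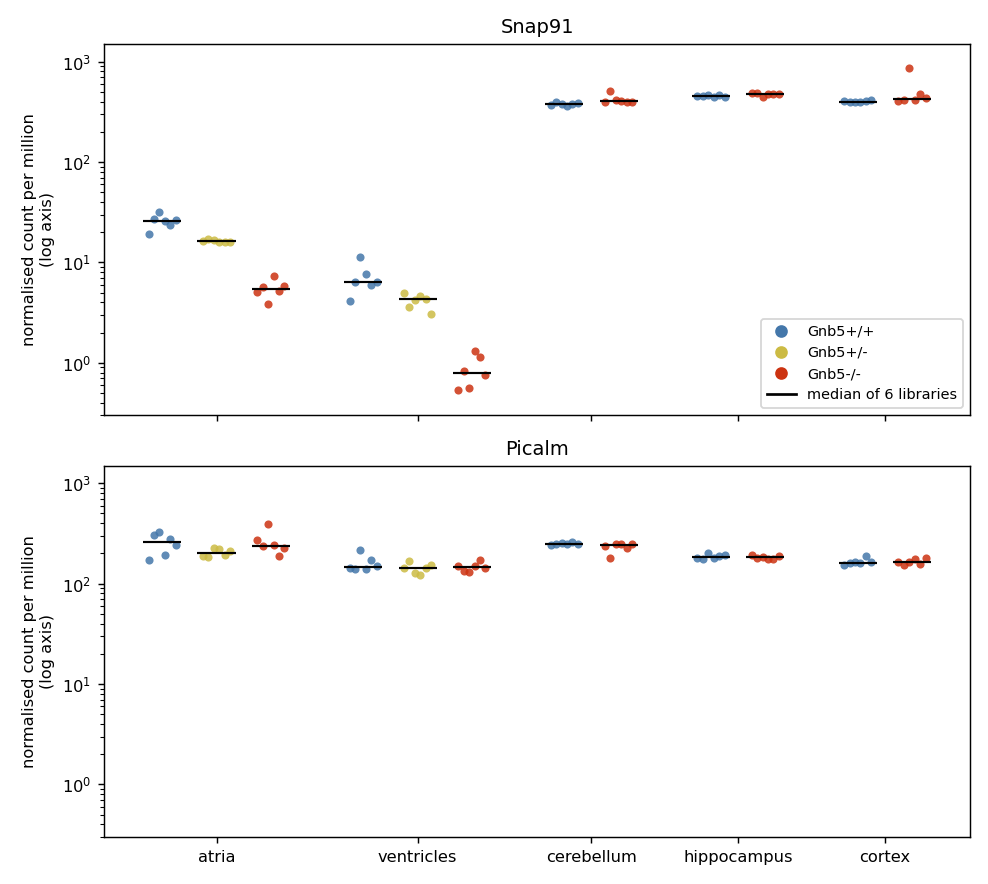
Normalised counts (CPM, log axis) of Snap91 and Picalm in each of 72 libraries, grouped by tissue on the horizontal axis and coloured by genotype, with a bar at the median of 6. Snap91 in the 12 knockout heart libraries lies below all wild-type and heterozygous libraries of its tissue, whereas in brain its medians run from 380 to 478 CPM in both genotypes, and Picalm overlaps between genotypes in every tissue.

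Because Snap91 is known as a neuronal gene, neuron and Schwann cell markers were read in the same heart libraries. The sum of 14 neuron markers ran from 24.1 to 37.0 CPM in Gnb5+/+ atria and from 23.1 to 59.8 in Gnb5-/- atria, with medians of 28.2 and 32.0. In ventricles it ran from 12.8 to 17.1 in Gnb5+/+ and from 10.2 to 14.04 in Gnb5-/- mice, with medians of 14.6 and 11.8. The median sum was thus higher in knockout atria and lower in knockout ventricles. In both genotypes most of it came from Dbh, Uchl1 and Stmn2, which sympathetic nerves or other cells contain. Of the 14 markers, 3 were at 0 in every Gnb5+/+ ventricular library, Chat and Th among them. In Gnb5-/- ventricles 2 were, Snap25 among them, which was at most 0.127 CPM in Gnb5+/+ ventricles. In atria 0 of 14 were at 0 in every library of either genotype. Markers averaging under 1 CPM were 11 of 14 in both genotypes of the ventricles, 11 in Gnb5+/+ atria and 10 in Gnb5-/- atria. The sum of 6 Schwann cell markers ran from 50.6 to 64.1 CPM in Gnb5+/+ and from 53.1 to 75.1 in Gnb5-/- atria, and from 14.5 to 17.5 and from 14.2 to 18.0 in the ventricles. Between Gnb5-/- and Gnb5+/+ mice edgeR called 0 of the 9 neuron markers that could be tested in atria and 0 of the 4 in ventricles at an adjusted p below 0.05 over all genes, and 1 in each tissue was below an unadjusted p of 0.05. Of all genes, 0.253% were called in atria and 0.188% in ventricles, and 8.15% and 4.78% were below the unadjusted threshold, so counts over so few markers say little. The log2 differences of the tested neuron markers ran from 0.02 to 1.92 in atria, all higher, and from -0.72 to -0.12 in ventricles, all lower. The part of nerve cells in the Snap91 level was not tested.

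In brain, where Snap91 was far more abundant, its level was not lower in Gnb5-/- mice. In cerebellum it ran from 365 to 394 CPM with a median of 380.0 in Gnb5+/+ and from 394 to 509 with a median of 401 in Gnb5-/- mice, with the highest wild-type library just below the lowest knockout library. In hippocampus the ranges were 444 to 468 with a median of 455 and 446 to 491 with a median of 478. In cortex they were 393 to 417 with a median of 399 and 403 to 871 with a median of 426. Groups of hippocampus and cortex overlapped, and the values of 509 and 871 were those of the libraries that stood apart.

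The log2 differences of Snap91 in brain were 0.14 in cerebellum (SE 0.0726, 95% interval -0.0160 to 0.298), 0.06 in hippocampus (SE 0.0294, -0.00509 to 0.121) and 0.32 in cortex (SE 0.175, -0.0576 to 0.70). None passed the edgeR quasi-likelihood test, with adjusted p = 0.583, 0.681 and 0.474 over all genes. Two-sided exact permutation tests, 6 mice against 6, gave p = 0.00216, 0.0368 and 0.0152, the first being the smallest such a test can give. Of 30 such tests in brain, 10 genes in 3 regions, 5 were below 0.05, and groups did not overlap in 1.1% of all genes tested in cerebellum. Without the library that stood apart, the difference in cerebellum was 0.08 (95% interval 0.0101 to 0.150, edgeR adjusted p = 0.372). In cortex it was 0.09 without replicate 3 (-0.0311 to 0.217, edgeR adjusted p = 0.775) and 0.05 without replicates 3 and 5 (-0.0238 to 0.126, edgeR adjusted p = 0.979). The heart differences beside them were -2.22 in atria and -3.03 in ventricles. Since the heart values chose the gene, the contrast between heart and brain was not tested.

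Picalm, the paralogue that most cells use, overlapped between genotypes in all 5 tissues. In Gnb5+/+ atria it ran from 170.5 to 324 CPM with a median of 262.0, in Gnb5+/- atria from 182 to 225 with a median of 204, and in Gnb5-/- atria from 189 to 396 with a median of 239. In ventricles the ranges were 138 to 217 in Gnb5+/+, 122 to 167 in Gnb5+/- and 132 to 173 in Gnb5-/- mice, with medians of 146, 143 and 145. The atrial spread within wild-type mice was thus wider than any distance between the medians. The log2 difference of Picalm between Gnb5-/- and Gnb5+/+ mice was 0.04 in atria (SE 0.161, edgeR adjusted p = 0.971) and -0.12 in ventricles (SE 0.111, edgeR adjusted p = 1.00), with 95% intervals of -0.292 to 0.381 and -0.355 to 0.108. In brain it was -0.11 in cerebellum, -0.03 in hippocampus and 0.01 in cortex, with adjusted p of 0.590, 0.875 and 0.943, and the value in cerebellum was -0.042 without replicate 2. The heart intervals thus reach no higher than 0.381 in atria and 0.108 in ventricles. Against Gnb5+/+, Gnb5+/- mice gave -0.31 in atria (SE 0.161, edgeR adjusted p = 0.723) and -0.17 in ventricles (SE 0.111, edgeR adjusted p = 0.967).

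The clathrin chains were at high levels in every tissue and did not pass the test in any comparison of genotypes. Cltc (ENSMUSG00000047126, chromosome 11, 86694351 to 86757565), the heavy chain that forms the legs of the triskelion, ran from 243 to 293 CPM in Gnb5+/+ atria and from 264 to 329 in Gnb5-/- atria. In ventricles it ran from 164 to 239.6 and from 177 to 207. The log2 differences were 0.09 in atria (SE 0.0720) and -0.03 in ventricles (SE 0.117), smaller than the spread between mice. Clta (ENSMUSG00000028478, chromosome 4, 44004452 to 44032846) and Cltb (ENSMUSG00000047547, chromosome 13, 54592401 to 54611344), the light chains that regulate the cage, gave log2 differences of -0.06 and -0.14 in atria and of 0.03 and 0.05 in ventricles. In brain the light chains depended on single libraries. Clta ran from 82.6 to 241 CPM in Gnb5-/- cerebellum against 75.5 to 90.4 in Gnb5+/+, with a log2 difference of 0.47 (SE 0.246, edgeR adjusted p = 0.583) that was 0.11 without replicate 2. In cortex Clta ran from 97.2 to 400 against 99.6 to 121, and its difference of 0.56 (SE 0.310, edgeR adjusted p = 0.474) was 0.11 without replicate 3 and -0.06 without replicates 3 and 5. Cltb in the same regions gave 0.21 and 0.34, which were 0.03 without replicate 2 of cerebellum and 0.0069 without replicates 3 and 5 of cortex.

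In those libraries other lists moved as well. In Gnb5-/- cerebellum replicate 2 the 14 neuron markers summed to 5951 CPM, against 3708 to 4190 in the other 5 knockout libraries, and the choroid plexus markers to 909 CPM against at most 21.1. In Gnb5-/- cortex replicate 3 the neuron markers summed to 8777 CPM against at most 5828 in the other 5. Snap91, Clta, Cltb and Bin1 were highest, and Dnm1, Dnm2, Dnm3 and Amph lowest, in both libraries. The part of tissue sampling or RNA quality in these values was not tested.

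Of the dynamins, Dnm2 is the form of most cells and Dnm1 the form of nerve terminals. Dnm2 (ENSMUSG00000033335, chromosome 9, 21424908 to 21507759, 53.8 Mb from Gnb5) ran from 76.0 to 104 CPM in Gnb5+/+ and from 77.6 to 98.7 in Gnb5-/- atria. Its log2 difference was 0.0041 in atria (SE 0.0849) and 0.10 in ventricles (SE 0.0923). Dnm1 (ENSMUSG00000026825, chromosome 2, 32308471 to 32353338) was low in heart, at 14.5 ± 1.06 CPM in Gnb5+/+ and 14.4 ± 3.11 in Gnb5-/- atria and at 8.69 ± 1.03 and 8.56 ± 0.920 in ventricles (mean ± SD, n = 6). For both genes the differences were within the spread between mice. Dnm3 (ENSMUSG00000040265, chromosome 1, 161982453 to 162478034), a dynamin of neurons and testis, stood at 4.16 ± 0.523 CPM in the atria of Gnb5+/+ mice and at 3.49 ± 0.815 in those of Gnb5-/- mice, differing by -0.25 (SE 0.151, edgeR adjusted p = 0.746). In brain the widest dynamin difference was that of Dnm1 in cortex, where levels ran from 1041 to 1230 CPM in Gnb5+/+ and from 340 to 1210 in Gnb5-/- mice. It came to -0.32 (SE 0.236, edgeR adjusted p = 0.497) and to -0.06 without replicates 3 and 5. Ciz1 on the opposite strand overlaps Dnm1, Tmed1 overlaps Dnm2 and Dnm3os overlaps Dnm3. The libraries were stranded but the strand setting of the counting was not given in the sources used here, so reads of these pairs may not be separate. On the same strand, Gm37941 overlaps Snap91, with at most 128 counts in a library. Gm45220, Gm45221, Gm45222 and Gm45223 likewise overlap Picalm, with at most 108. Strand cannot separate reads of those overlaps.

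The amphiphysins link the curved membrane to clathrin and dynamin, and in striated muscle Bin1 helps to form the transverse tubules. Bin1 (ENSMUSG00000024381, chromosome 18, 32377230 to 32435737) ran from 6.65 to 10.1 CPM in Gnb5+/+ and from 8.90 to 10.7 in Gnb5-/- atria, and its log2 difference was 0.15 in atria (SE 0.115) and 0.09 in ventricles (SE 0.123). Amph (ENSMUSG00000021314, chromosome 13, 18948205 to 19150921) was scarce in atria, with 8 to 49 counts per library over the 3 genotypes. In ventricles it ran from 1.17 to 6.10 CPM with a median of 2.39 in Gnb5+/+, from 1.40 to 4.00 with a median of 3.44 in Gnb5+/- and from 1.09 to 2.65 with a median of 1.53 in Gnb5-/- mice. Gnb5+/+ libraries were the most spread and overlapped both other genotypes, and the difference of -0.66 in Gnb5-/- ventricles (SE 0.351, 95% interval -1.39 to 0.0715, edgeR adjusted p = 1.00) was within that spread. It was the largest difference of a member other than Snap91 in the 7 comparisons of genotypes. In Gnb5-/- cortex Amph was -0.18 (SE 0.114, edgeR adjusted p = 0.475), and it was -0.088 without replicate 3 and -0.049 without replicates 3 and 5.

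**Figure D2:**
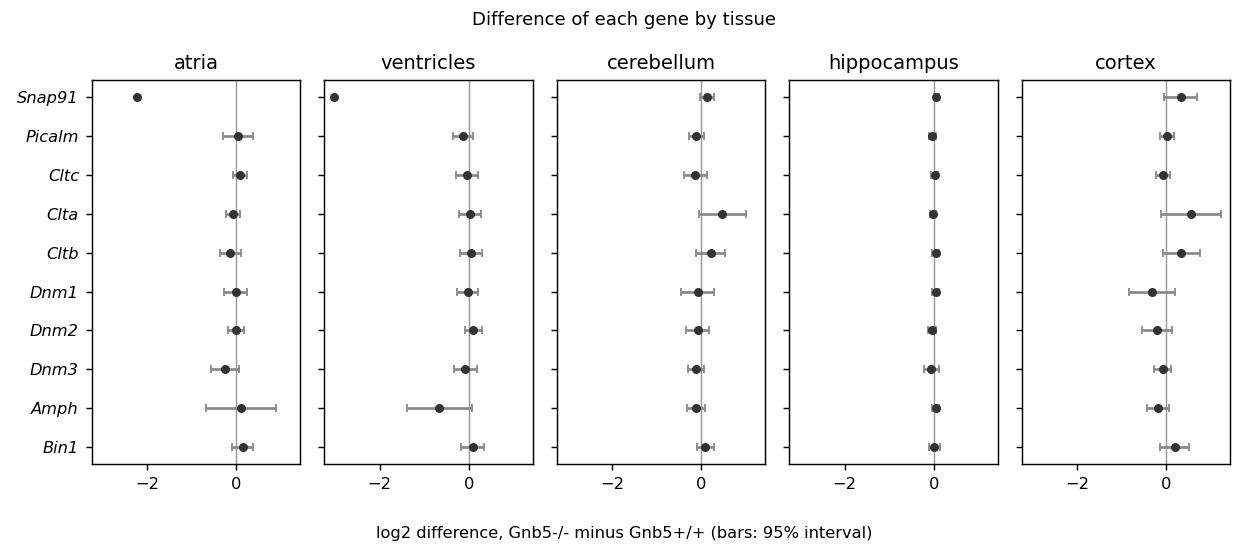
Log2 difference of each of the 10 genes between Gnb5-/- and Gnb5+/+ mice (horizontal axis) in 5 panels, 1 for each tissue, with bars for 95% intervals from the edgeR fit; Snap91 in atria and ventricles has no interval because those values chose it. Snap91 stands at -2.22 and -3.03 in the heart panels, and all other intervals include 0.

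Over the 9 partners, edgeR called 0 in Gnb5-/- atria and 0 in Gnb5-/- ventricles at an adjusted p below 0.05, where it called 0.253% and 0.188% of all genes tested. It also called 0 of 9 in Gnb5+/- atria and ventricles, where the shares of all genes were 0.0124% and 0.0202%, and 0 of 10 members in Gnb5-/- cerebellum, hippocampus and cortex, where they were 0.0817%, 0.165% and 0.0557%. With so few calls among all genes, a count of 0 among 9 or 10 says little, and the intervals above carry more. At an unadjusted p below 0.05 the count of partners was likewise 0 in all 7 comparisons, beside 8.15%, 4.78%, 5.85%, 7.7% and 7.39% of all genes tested for Gnb5-/- atria, ventricles, cerebellum, hippocampus and cortex and 7.22% and 4.84% for Gnb5+/- atria and ventricles. DESeq2 called 0 partners in each. Groups did not overlap for 0 partners in any comparison, beside 0.612%, 0.538%, 1.1%, 0.648% and 0.601% of all genes in the Gnb5-/- comparisons and 0.198% and 0.168% in the Gnb5+/- comparisons. In the heart, 0 of 36 exact permutation tests of the partners were below 0.05. In brain, besides the 3 of Snap91, Clta in cerebellum (exact p = 0.0476) and Amph in cortex (exact p = 0.0238) were below it, and neither passed in edgeR.

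Whether the effect of the knockout differed between brain and heart was tested for the 9 partners as an interaction in 1 edgeR fit of the 60 Gnb5-/- and Gnb5+/+ libraries with the mouse as a block. Of the 9, edgeR called 0 and 0 were below an unadjusted p of 0.05, where it called 0.408% of 20358 genes. Brain minus heart effects ran from -0.17 for Dnm2 to 0.29 for Clta in log2 units. Without Gnb5-/- cerebellum replicate 2 and Gnb5-/- cortex replicate 3, Dnm2 was -0.096 and Clta 0.074, and the values ran from -0.105 for Bin1 to 0.206 for Amph. Comparing the ventricular with the atrial effect, 0 of the 9 were called, where 0.00491% of genes were. For Snap91 the values side by side were -2.22 and -3.03 in heart and 0.06 to 0.32 in brain.

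Levels were next compared between wild-type tissues. The selection compared no tissues, but the wild-type heart libraries were part of the contrast that chose Snap91. Tests of Snap91 that involve heart are therefore not independent of its choice. Between brain, the mean of 3 regions, and heart, the mean of 2 tissues, all 10 genes passed the edgeR test with the mouse as a block, where 91.6% of all genes did. Of the 10, 8 were higher and 2 lower in brain, and of all genes 50.6% were higher and 41% lower. The sizes differed widely. Amph was 6.71 higher in brain on the log2 scale (SE 0.169), Dnm1 5.90 (SE 0.0595), Dnm3 4.71 (SE 0.0554), Bin1 4.15 (SE 0.0546) and Snap91 4.14 (SE 0.0819), while the median of all genes was 0.228. Cltc, Clta and Cltb were higher by 0.82, 0.72 and 0.48. Picalm was lower in brain by 0.83 (log2 difference -0.83, SE 0.0581) and Dnm2 by 0.91 (-0.91, SE 0.0457). Each gene that is lower in brain is thus the general form of a family whose neuronal form is higher there.

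Snap91 stood highest in hippocampus, then cortex, cerebellum, atria and ventricles. Per kilobase of exon its level was 40.5 ± 0.867 CPM in hippocampus, 34.7 ± 0.922 in cortex and 32.1 ± 1.02 in cerebellum, against 3.32 ± 0.568 in atria and 1.25 ± 0.414 in ventricles (mean ± SD, n = 6). Between hippocampus and cortex (log2 difference 0.22, edgeR adjusted p = 0.0845) and between cerebellum and cortex (-0.11, edgeR adjusted p = 0.335) the difference did not pass the test. Cerebellum was below hippocampus (-0.34, edgeR adjusted p = 0.00464). Atria were above ventricles (1.42, SE 0.115, edgeR adjusted p = 3.23e-11), in the wild-type libraries of the contrast that chose Snap91. Among the partners, Dnm1 was also higher in atria than in ventricles (0.27), and Dnm3 (-0.94) and Amph (-2.70) were lower. These were 4 of 10 members, where 53.6% of all genes were called.

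Per kilobase, Cltc led the set in heart, at 37.4 CPM in atria and 37.4 in ventricles, followed by Clta at 27.9 and 25.6 and Dnm2 at 20.3 and 22.3. In brain Dnm1 led in all 3 regions, at 156 CPM in cerebellum, 205 in hippocampus and 177 in cortex, and Cltc was next at 69.5, 66.2 and 63.0. Within brain, Dnm3 was highest in cerebellum, by 1.16 over hippocampus (SE 0.0660) and by 0.84 over cortex (SE 0.0655). Clta was lowest there, by -0.44 against hippocampus (SE 0.0751), and Cltb highest, by 0.61 (SE 0.0876). The light chains thus ran opposite ways between the same regions. In all, 6 of 10 members were called between cerebellum and cortex, 3 between hippocampus and cortex and 8 between cerebellum and hippocampus, where 71.8%, 37.7% and 70.8% of all genes were.

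**Figure D3:**
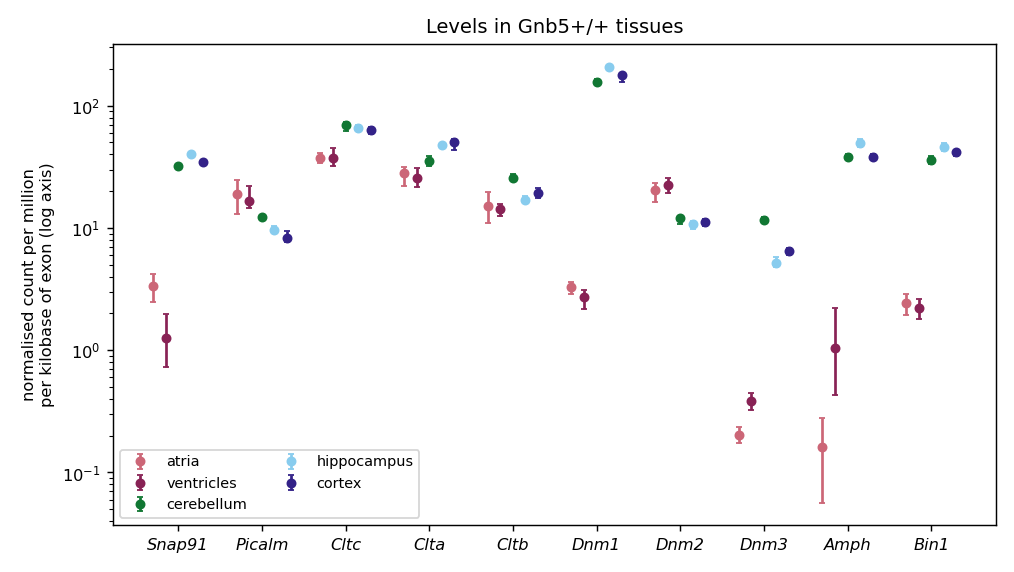
Level of the 10 genes in Gnb5+/+ mice, in CPM per kilobase of exon (log axis), with the mean of 6 libraries as a point, bars from the lowest to the highest library, and colours for the 5 tissues. Dnm1 in brain reaches 205 CPM per kilobase in hippocampus, Amph and Dnm3 in atria lie at 0.161 and 0.201, and Picalm and Dnm2 are the genes whose heart points lie above their brain points.

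The shares of Snap91 and Picalm, and of Dnm1 and Dnm2 among the dynamins, divided brain from heart. The light chain shares did not, and the amphiphysin shares overlapped between ventricles and brain. Per kilobase, Snap91 made up 15.2 ± 2.15% of Snap91 and Picalm together in Gnb5+/+ atria, 12.2 ± 1.1% in Gnb5+/- atria and 3.74 ± 1.18% in Gnb5-/- atria (mean ± SD, n = 6). In ventricles the shares were 6.92 ± 1.51%, 4.86 ± 1.15% and 0.985 ± 0.319%. Picalm was therefore the main form in heart in every genotype, before any loss of Snap91. In brain Snap91 was the main form, with 72.4 ± 0.773% in Gnb5+/+ cerebellum, 80.7 ± 0.712% in hippocampus and 80.8 ± 0.977% in cortex, against 75.5 ± 3.65%, 81.7 ± 0.803% and 83.0 ± 3.72% in Gnb5-/- mice. Without the library furthest apart in each, the Gnb5-/- means were 74.1% in cerebellum and 81.6% in cortex.

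Dnm2 made up 85.3% of the dynamins in Gnb5+/+ atria and 87.7% in ventricles, and Dnm1 86.9% in cerebellum, 92.8% in hippocampus and 90.9% in cortex. Clta held 65.2% of the light chains in atria and 64.2% in ventricles, with 57.5% in cerebellum and 73.9% in hippocampus. These light chain shares depend on the division by exon length, 1800 bases for Clta and 4868 for Cltb. In CPM, Cltb was above Clta in Gnb5+/+ atria (61.8 against 42.4), ventricles (42.2 against 28.1) and cerebellum (163 against 81.7). It was 120 against 116 in cortex and 101 against 106 in hippocampus. Amph held 6.21% of the amphiphysins in atria, 29.6% in ventricles and from 47.8% to 51.6% in the brain regions. Of 28 shares compared between Gnb5-/- and Gnb5+/+ mice by two-sided exact permutation tests, leaving out the Snap91 share in heart, 0 passed after Benjamini-Hochberg adjustment. The smallest p was that of the Snap91 share in cerebellum, which was higher by 3.15 points in Gnb5-/- mice (exact p = 0.00649, adjusted p = 0.182) and by 1.68 points without replicate 2 (exact p = 0.0130, adjusted p = 0.242).

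**Figure D4:**
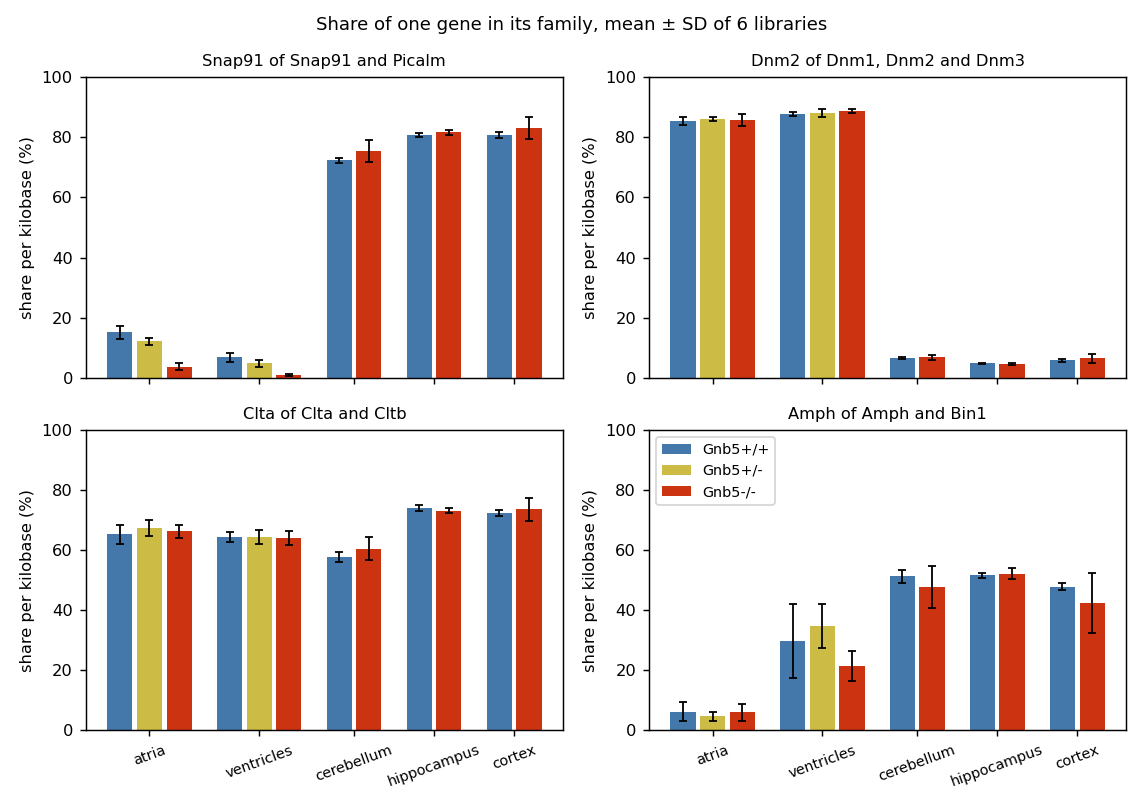
Share of Snap91, Dnm2, Clta and Amph in its own family, in percent of normalised counts per kilobase, in the 12 groups (bars: mean of 6 libraries, error bars: SD, colours: genotype). The Snap91 share steps down with genotype in heart, from 15.2% to 3.74% in atria, while in the other 3 families 0 of the shares compared between Gnb5-/- and Gnb5+/+ mice passed the adjusted test.

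The rest of the endocytic machinery was read from 5 lists with 59 genes, of which 58 were measured: the AP2 adaptor, early coat and curvature proteins, scission and BAR partners, kinases and lipid and uncoating enzymes, and VAMP cargo. All 58 passed the filter on low counts in every tissue, and edgeR and DESeq2 each called 0 of them in all 7 comparisons of genotypes. At an unadjusted p below 0.05 edgeR gave 2 in Gnb5-/- atria, 5 in Gnb5+/- atria, 2 in Gnb5-/- ventricles, 1 in Gnb5+/- ventricles, 2 in cerebellum, 3 in hippocampus and 3 in cortex, where the shares of all genes were 8.15%, 7.22%, 4.78%, 4.84%, 5.85%, 7.7% and 7.39%. The median log2 difference of the 58 was -0.03 in Gnb5-/- atria and -0.01 in Gnb5-/- ventricles, beside 0.00014 and -0.0059 over all genes. It was -0.06 in cerebellum, 0.01 in hippocampus and -0.11 in cortex, with the libraries that stood apart included.

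Of the 58, 2 differed in knockout effect between brain and heart, where 0.408% of all genes did. Sh3gl2, which encodes endophilin A1, a BAR protein that bends membrane at the bud, had a brain effect 0.43 above its heart effect (SE 0.105, edgeR adjusted p = 0.0439). Its own differences were -0.32 in atria and -0.56 in ventricles, at wild-type levels of 2.07 and 1.40 CPM, and -0.04 to 0.03 in brain, where it stood between 276 and 536 CPM. Fcho1, which encodes a nucleator of the clathrin coat, had a brain effect 0.50 below its heart effect (log2 difference -0.50, SE 0.120, edgeR adjusted p = 0.0403), with 0.09 in atria and 0.77 in ventricles, where its wild-type level was 0.369 CPM. The heart side of the Fcho1 contrast thus rested mostly on the ventricles, at that low level. None of these differences within a tissue passed the test. Both genes are named after their values were seen. Without Gnb5-/- cerebellum replicate 2 and Gnb5-/- cortex replicate 3, the interaction of Sh3gl2 was 0.44 (edgeR adjusted p = 0.0259) and that of Fcho1 -0.45 (edgeR adjusted p = 0.0444).

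**Figure D5:**
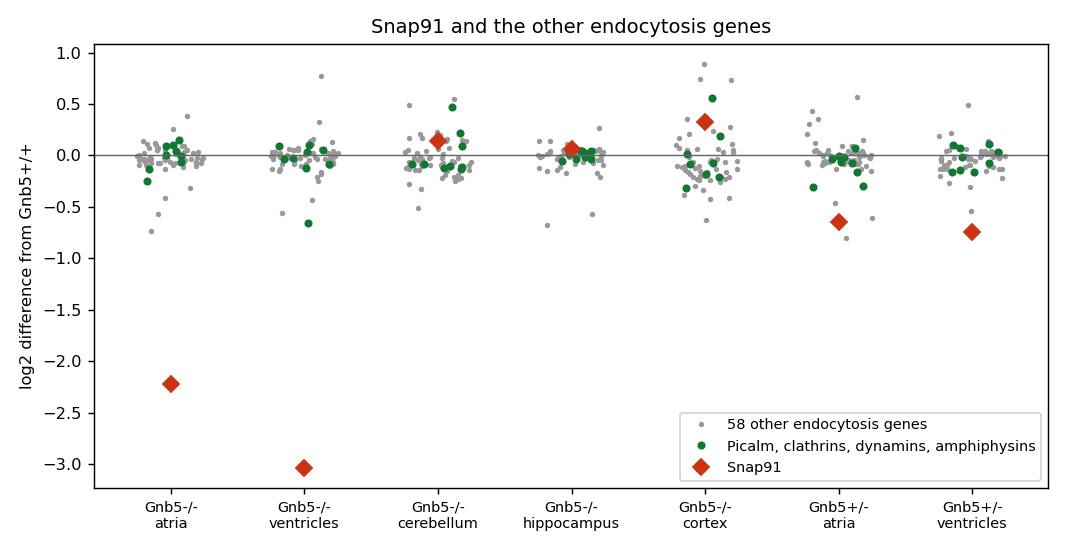
Log2 difference from Gnb5+/+ (vertical axis) of Snap91 (diamonds), its 9 partners (green) and the 58 other endocytosis genes (grey) in 7 comparisons of genotype and tissue. Snap91 lies at -2.22 and -3.03 in knockout atria and ventricles, below the lowest of the other endocytosis genes, at -0.73 and -0.56.

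Genes beside Snap91 were read next, since Snap91 and Gnb5 share a chromosome. Of 22 annotated genes that start within 0.5 Mb of its ends, Gm37941 inside Snap91 included, 10 were tested in atria and 8 in ventricles. In Gnb5-/- atria 1 of the 10 was called, Cyb5r4, a cytochrome b5 reductase (-0.52, edgeR adjusted p = 0.00205), and in ventricles 0 of the 8, where 0.253% and 0.188% of all genes were called. In ventricles Cyb5r4 was -0.56 (edgeR adjusted p = 0.0660), with no overlap between the groups, as for 0.538% of all genes there. In Gnb5-/- hippocampus, where 0.165% of all genes were called, edgeR called 3 of 13, Cyb5r4 (-0.56, adjusted p = 0.0249), Me1, the cytosolic malic enzyme (0.35, adjusted p = 0.00325), and A330041J22Rik (1.05, adjusted p = 0.00496), with 0 of 14 in cerebellum and 0 of 13 in cortex. In the Gnb5+/- comparisons 0 were called. The called neighbours of hippocampus did not share a direction. In cerebellum and cortex each kept its hippocampal direction, though not called. Cyb5r4 was -0.33 and -0.32 there, Me1 0.57 and 0.69, and A330041J22Rik 1.67 and 1.52, with the libraries that stood apart included. Groups did not overlap for Me1 and A330041J22Rik in either region, and in cerebellum also for other neighbours, some higher and some lower. Of all genes, groups did not overlap for 1.1% in cerebellum and 0.601% in cortex. In Gnb5-/- atria and ventricles Me1 was 0.04 and -0.11 and A330041J22Rik 0.76 and 1.11, with overlap between the groups. Chromosome 9 held 27 of the 41 genes called in Gnb5-/- atria and 20 of the 28 in ventricles, but 5.77% and 5.66% of the genes tested. It also held 13 of the 14 called in cerebellum, 25 of the 29 in hippocampus and 8 of the 10 in cortex. There it held 5.89%, 5.92% and 5.85% of the genes tested. The called genes include Gnb5, the deleted gene, in every tissue, and in heart Snap91, which was chosen for its difference there. The loss of Gnb5 and any other sequence inherited with the mutant chromosome 9 cannot be told apart by these groups.

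Across the 36 heart libraries, each tissue centred on its own mean, the genes whose log2 CPM followed Snap91 most closely among 14650 were Gnb5 (Pearson r = 0.938), Rpl29 (r = 0.920), Gm5561 (r = 0.906), Hmgn3 (r = 0.871) and Parp3 (r = 0.862), of which 4 lie on chromosome 9. Picalm had r = 0.0236 and ranked 6681. The points share genotype, mouse and scaling, so the values are a description, and the part of genotype in this likeness was not tested. Over the 12 group means, which mostly separate brain from heart, the nearest of 20153 genes were Irs2 (r = 0.986), Nr4a2 (r = 0.986), Gm45844 (r = 0.985), Snhg10 (r = 0.984) and Bbs7 (r = 0.983), and Cltc came nearest of the members with r = 0.961.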

How the data were processed

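RNA-seq of 72 libraries from 18 mice was analysed. Per the labels and the study's methods, the authors made stranded total RNA libraries, trimmed reads with Cutadapt 1.8, aligned them with STAR 2.5.3a to GRCm38 and deposited raw read counts per gene from HTSeq 0.9.1. The strand setting of the counting is not given in the sources used here. Rows naming no gene (4.01% to 18.1% of a library's total) were left out. Of 53715 Ensembl identifiers, 53620 were matched to GENCODE M21 for symbols, positions and exon lengths, and 95 were not. The exon length of a gene was the total of all its annotated exons, so orders of genes per kilobase depend on that divisor. Vamp7, listed as a cargo gene, was not matched.

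The counts were filtered with filterByExpr (minimum count 10), scaled by TMM and fitted within each tissue by genotype with the quasi-likelihood test of edgeR 4.0.16 in R 4.3.3, with Benjamini-Hochberg adjustment over all genes and a threshold of 0.05. Wild-type tissues (30 libraries) and the interaction of genotype and tissue (60 libraries) were fitted with the mouse as a block, since each mouse gave every tissue. Deviations of the same wild-type mouse in different tissues correlated at 0.0964 to 0.522. CPM values are scaled within a tissue, and values per kilobase across tissues are scaled over the wild-type libraries. Log2 CPM for correlations used a prior count of 2, and group means were scaled within each tissue. Exact permutation tests used all 924 divisions of 6 and 6 mice. Python 3.11.15, pandas 2.3.3 and scipy 1.17.1 were used, and the fits were tested on simulated data.

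The members, gene lists and tests were chosen with earlier results of these data known. The 10 members are named in full, other endocytosis genes where called for a genotype, the 5 genes most like Snap91 by Pearson r in each measure, and called genes that start within 0.5 Mb of Snap91. Alternatives were DESeq2 1.42.0, RLE scaling, no filter, the replicate number as a block or the mouse block left out, shares without division by length, and single libraries left out. Leaving out Gnb5+/- ventricles replicate 4, Gnb5-/- cortex replicates 3 and 5 together, or in the interaction Gnb5-/- cerebellum replicate 2 with Gnb5-/- cortex replicate 3, was chosen after seeing the data.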

Additional observations from a re-analysis of the deposited data

Results flagged for a closer look

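In each group of 6 libraries, the highest or lowest value of each member was compared with its nearest neighbour by Dixon's criterion. Of 120 groups 22 stood out, where chance gives about 1 in 20 groups.

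Gnb5-/- cerebellum replicate 2 gave 8 of these. Its Snap91 (509 CPM), Clta (241 CPM), Cltb (306 CPM) and Bin1 (261 CPM) were the high values of their group. Its Picalm (182 CPM), Dnm1 (471 CPM), Dnm2 (49.8 CPM) and Amph (148 CPM) were the low values. Gnb5-/- cortex replicate 3 gave 4, all high, with Snap91 at 871 CPM, Clta at 400.1 CPM, Cltb at 268 CPM and Bin1 at 392 CPM. The members that stood out upwards were thus the same 4 in both libraries.

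Gnb5+/+ cortex replicate 5 gave 3, with Picalm high at 187 CPM and Clta at 99.6 CPM and Dnm1 at 1041 CPM low. Gnb5+/- ventricles replicate 4 gave 2, with Clta high at 45.1 CPM and Cltc low at 111 CPM. Gnb5+/+ cerebellum replicate 1 gave 2 low values, Cltc at 682 CPM and Dnm2 at 74.7 CPM. In atria, Cltc was low in Gnb5+/- replicate 1 (224 CPM), Dnm2 low in Gnb5+/- replicate 2 (72.8 CPM) and Bin1 high in Gnb5-/- replicate 3 (10.7 CPM).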

How the results depend on the processing

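Under each alternative tried, 0 of the 9 partners were called in the heart comparisons of genotypes and 0 of the 10 members in those of brain, and between wild-type tissues the number of members called stayed within 1.5 times of its value. Counts over all genes moved more. DESeq2 called 110 genes in Gnb5-/- atria, 63 in ventricles, 49 in cerebellum, 104 in hippocampus and 25 in cortex, and 7 in Gnb5+/- atria, where edgeR called 41, 28, 14, 29, 10 and 2. Without Gnb5-/- cerebellum replicate 2 edgeR called 62 in cerebellum, without Gnb5-/- cortex replicate 3 it called 22 in cortex and without replicates 3 and 5 it called 26, and the interaction of brain and heart gave 156 in place of 83 without both of the first libraries.

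The replicate numbers did not pair genotypes, since the correlations of same-numbered libraries ran from -0.242 to 0.147. With the replicate block, 0 of the 9 partners were called in heart and 0 of the 10 members in brain, as without it, and over all genes 37 were called in Gnb5-/- atria, 23 in ventricles, 5 in cerebellum, 19 in hippocampus and 6 in cortex, with 0 in Gnb5+/- ventricles in place of 3.

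Some differences changed sign, none of them called; the widest was Clta in Gnb5-/- cortex, 0.56 with all libraries. Without Gnb5+/- ventricles replicate 4, the Gnb5+/- difference in ventricles was -0.036 for Clta, 0.036 for Dnm2 and -0.0061 for Cltb. Without Gnb5-/- cerebellum replicate 2, Dnm1 was 0.065 and Dnm2 0.026. Without Gnb5-/- cortex replicates 3 and 5, Bin1 was -0.034, Clta -0.062, Dnm2 0.0024, Dnm3 0.015 and Cltc 0.0046. In the interaction without the first library of each region, Dnm1 was 0.0013 and Picalm 0.0060. Dnm1 in Gnb5-/- atria was 0.0013 with no filter, and Cltc between atria and ventricles -0.055 with DESeq2 and with RLE scaling. The cause was not tested.

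Between wild-type tissues, calls near the threshold changed. Dnm2 was called lower in atria than in ventricles by DESeq2 (-0.19, adjusted p = 0.0217) and under RLE. Between hippocampus and cortex, Picalm was no longer called with DESeq2, RLE or no mouse block, while Cltb was called with DESeq2 and RLE, Bin1 with DESeq2 and Amph with no filter. Amph between cerebellum and hippocampus was not called with DESeq2 or without the mouse block. With 8 to 49 counts per library, Amph in atria is the member most limited by depth.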
